A study of Homo sapiens with 17 samples.

Results

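The heat-inducible HSP70 chaperones and their co-chaperones were described here in BEAS-2B, an immortalised human bronchial epithelial line, after exposure to acetaldehyde, a reactive aldehyde formed from ethanol and present in tobacco smoke. The set was chosen by name, with earlier results of these data known. It holds 10 genes of the 16884 in the table: HSPA1A, HSPA1B, HSPA6, HSPA8, HSPH1, DNAJB1, DNAJA1, BAG3, HSP90AA1 and HSPB1. All 10 were in the table and all 10 had enough counts to be tested. Messenger RNA was sequenced from wild-type cells kept for 24 h in BEGM, a bronchial epithelial medium, with 0 mM (control, 6 libraries), 10 mM (6 libraries) or 16 mM (5 libraries) acetaldehyde. Each group is the same line in the same medium and differs in dose alone, per the labels. No label says that the libraries of 1 group are separate cultures, and p-values measure the spread between these libraries, which may be technical. All libraries are bulk RNA, in which fewer cells of a type and less RNA per cell cannot be told apart.

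HSP70 proteins bind exposed hydrophobic stretches of unfolded proteins and release them in a cycle driven by ATP. J-domain proteins such as DNAJB1 and DNAJA1 deliver clients and start ATP hydrolysis, while nucleotide exchange factors such as HSPH1 and BAG3 open the cycle for release. HSP90AA1 takes over clients at a later folding step, and the small heat shock protein HSPB1 holds unfolded proteins without ATP. Heat shock factor 1, the main activator of these genes under protein-damaging stress, binds heat shock elements, which are inverted repeats of the short unit GAA.

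Promoter windows from RefSeq (GRCh38.p14) covered 300 bases, from 250 before each annotated transcript start to 50 after it, and 13 windows matched the 10 genes. They were searched for a pair of inverted units, GAANNTTC or TTCNNGAA. Each of these reads the same on both strands. The 13-letter triple unit was searched as GAANNTTCNNGAA or TTCNNGAANNTTC, each of which is the reverse complement of the other and contains both 8-letter motifs overlapping. An 8-letter motif stood in 9 of the 13 windows, against 13.5% of 35116 RefSeq windows of the same length. By gene it stood in 8 of the 10. The 13.5% is a share of windows and not of genes, and genes with more listed starts have more windows. The 13-letter motif stood in 4 windows of 4 genes, HSPA6, HSPA8, DNAJA1 and HSP90AA1, against 0.49% of all windows. The letters were not in the windows of HSPH1 and BAG3, nor in the first listed starts of DNAJB1 and HSP90AA1.

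The 100-base stretches below carry motifs upstream of the start. They are shown for the inducible HSP70 genes, for HSPA8, and for DNAJB1, HSP90AA1 and HSPB1. The upstream stretch of DNAJA1 is not shown. Capitals mark the 8-letter motifs, run together where they overlap, and each sequence is read 5′ to 3′ on the strand of the gene. HSPA1A is chr6:31815387-31815486 (plus strand), HSPA1B is chr6:31827583-31827682 (plus), and HSPA6 is chr1:161524418-161524517 (plus). HSPA8 is chr11:123062140-123062239 (minus), DNAJB1 is chr19:14518410-14518509 (minus, second listed start), HSP90AA1 is chr14:102087075-102087174 (minus, second listed start) and HSPB1 is chr7:76302441-76302540 (plus).
HSPA1A: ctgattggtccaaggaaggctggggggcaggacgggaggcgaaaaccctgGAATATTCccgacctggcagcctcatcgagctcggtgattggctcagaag
HSPA1B: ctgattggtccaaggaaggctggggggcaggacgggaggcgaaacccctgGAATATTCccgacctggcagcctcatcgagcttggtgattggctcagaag
HSPA6: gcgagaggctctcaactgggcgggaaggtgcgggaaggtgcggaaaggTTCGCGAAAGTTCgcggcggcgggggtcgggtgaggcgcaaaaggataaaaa
HSPA8: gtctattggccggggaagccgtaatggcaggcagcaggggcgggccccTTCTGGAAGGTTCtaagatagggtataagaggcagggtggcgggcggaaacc
DNAJB1: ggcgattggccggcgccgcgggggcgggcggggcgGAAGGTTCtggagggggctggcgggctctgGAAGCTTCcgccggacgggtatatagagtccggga
HSP90AA1: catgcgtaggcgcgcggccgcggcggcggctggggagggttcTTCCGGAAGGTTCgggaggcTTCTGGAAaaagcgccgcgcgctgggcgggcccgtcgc
HSPB1: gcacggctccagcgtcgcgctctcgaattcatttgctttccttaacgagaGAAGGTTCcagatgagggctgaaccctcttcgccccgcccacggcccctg
The windows of HSPA1A and HSPA1B were 92.0% identical, with 277 identical bases, 22 mismatches and 2 gap positions, and each held 1 motif, which began 106 and 105 bases before the start. HSPA6 and HSPA8 had a triple unit close to the start, beginning 74 and 55 bases before it. HSPA8 had another triple unit farther upstream, beginning 230 bases before the start. A match is a match of letters and was not tested as a binding site.

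**Figure D1:**
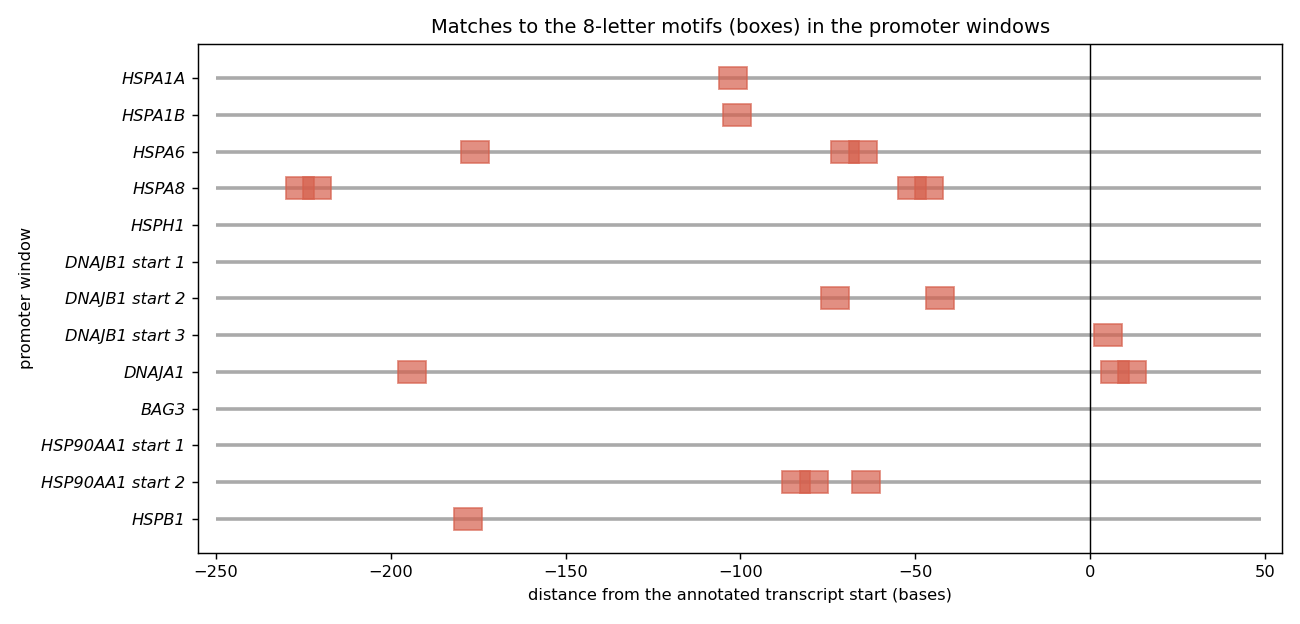
Positions of the 8-letter motifs in the 13 promoter windows of the 10 genes, with distance from the annotated transcript start in bases on the horizontal axis (0 is the start) and 1 row per window. Boxes are motifs drawn to scale and overlapping boxes form the triple unit; 9 windows hold a box, and the windows of HSPH1 and BAG3 hold none.

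Total estimated counts lay between 15952673 and 18809242 per library. One library stood apart in values taken across genes. Library 1 of the 10 mM group correlated at r between 0.824 and 0.853 across genes (log2 counts scaled to library size, the 10 genes left out) with the other 10 mM libraries. Over the genes tested, the 10 included, its TMM scaling factor was 0.559, against at least 0.967 in every other library. Its median FPKM over these genes was 6.64, against at least 13.6 elsewhere. FPKM is a fragment count scaled for transcript length and library depth, and TPM is transcript abundance scaled to the same total in each library. TPM was 1.02 times FPKM in 10 mM library 1 and 1.80 to 1.97 times FPKM in the other libraries, so where that library lies relative to the others depends on the scale. The other libraries fell into sets of very close libraries: control 1 to 3 and control 4 to 6, 10 mM 2 to 4 and 10 mM 5 and 6, and 16 mM 1 to 3 and 16 mM 4 and 5. Pairs in the same set correlated at r between 0.994 and 0.998 (14 pairs), and pairs across sets of a group at r between 0.981 and 0.992 (21 pairs). Within sets the variance was 1.74 to 12.1 times that of counting alone, and across sets of a group it was 21.5 to 56.5 times. Repeat libraries of 1 culture can also exceed counting alone, so these values do not show separate cultures. Libraries of a set were kept as separate libraries in the reported fit, and their p-values may be too small for that reason. The labels name no batch, and they do not tie the sets of one group to those of another. They are called the first and the second set by library number.

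The cells carried part of the bronchial epithelial pattern. Of 10 epithelial markers, 6 averaged at least 1 FPKM, while KRT5, KRT19, EPCAM and CDH1 stayed at or near 0. Of the 9 fibroblast and mesenchymal markers in the table, 5 averaged at least 1 FPKM, and 0 leukocyte and 0 endothelial markers did. PTPRC, CD3E, PECAM1, CDH5 and VWF were at or near 0. The epithelial markers summed to 957 to 1753 FPKM in control, 1168 to 1398 FPKM in 10 mM libraries 2 to 6 and 1229 to 1341 FPKM at 16 mM, against 5806 FPKM in 10 mM library 1. The fibroblast and mesenchymal markers summed to 600 to 986 FPKM in control, 618 to 776 FPKM in 10 mM libraries 2 to 6, 515 to 651 FPKM at 16 mM and 1427 FPKM in 10 mM library 1. VIM, at 554 ± 66.4 FPKM at 16 mM and 773 ± 175 FPKM in control (SD, n = 5 and 6), made up most of that sum. Smaller markers changed: of 7 mesenchymal markers tested, 0 rose and 4 fell at 16 mM, with log2 changes of -2.28 for DCN, -1.58 for LUM, -1.88 for PDGFRB and -2.07 for FAP. That is 57.1% called, against 35.3% of all genes tested. DCN and LUM were near the floor, at means of 0.35 and 0.652 FPKM in control and 0.072 and 0.216 FPKM at 16 mM. Of 6 epithelial markers tested, KRT17 rose by 1.90 and ITGB4 fell by 1.98, a share of 33.3%, close to that of all genes. CD14, the 1 leukocyte marker tested, rose by 1.00, at 1.02 ± 0.27 FPKM at 16 mM and 0.475 ± 0.109 FPKM in control. The part of these levels and changes in the results on the 10 genes was not tested.

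Most of the chaperone set was higher at both doses than in control. At 16 mM, 8 of the 10 genes were called higher (adjusted p under 0.05, quasi-likelihood test of edgeR, Benjamini-Hochberg), against 35.3% of 12564 genes tested that were called in either direction and 17.3% called higher. The median log2 change of the 10 genes was 2.10, against 0.0021 over all genes tested. HSPA6 and the HSPA1A and HSPA1B pair had the largest estimates, and DNAJB1 and HSPB1 missed the threshold. Without 10 mM library 1, whose omission lowered the SE of HSPA6 from 1.80 to 0.33, all 10 were called higher at 16 mM, against 65.9% called and 33.7% called higher of 12545 genes. In FPKM, every 16 mM library lay above every control library for all 10 genes, against 23.8% of the genes tested.

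At 10 mM, 9 of the 10 genes were called higher than in control, against 18.7% of genes called and 9.41% called higher. The exception was HSPB1, at 1.34 ± 0.46 (SE; adjusted p = 0.0510). The count was again 9 without 10 mM library 1, against 45.2% called and 22.4% called higher, and HSPB1 then stood at 0.42 ± 0.19 (adjusted p = 0.0811). The sizes changed much more than the count: the median log2 change of the 10 genes at 10 mM was 2.49 with that library and 1.61 without it. For 9 genes every 10 mM library lay above every control library, against 4.55% of genes tested with that library and 14.9% without it. The HSPB1 libraries overlapped.

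**Figure D2:**
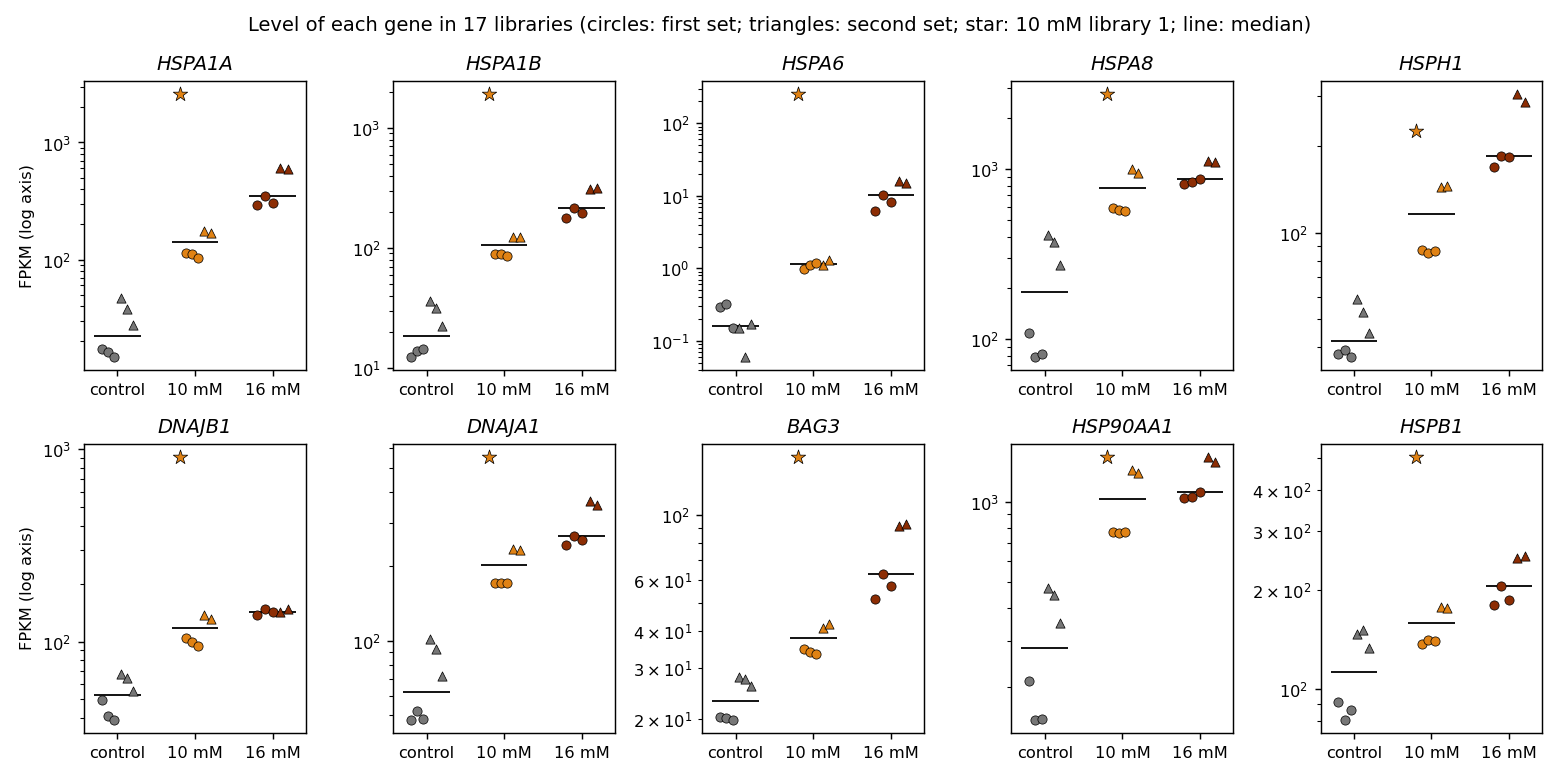
FPKM on a log axis for each of the 10 genes in all 17 libraries, by acetaldehyde dose from control to 16 mM. Circles are the first and triangles the second set of close libraries, the star is 10 mM library 1 and the line is the group median; the 16 mM libraries lie above all control libraries in every panel.

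HSPA1A and HSPA1B, neighbouring genes that encode almost the same stress-inducible HSP70 protein, lay below HSPA8 in every control library and were among the most raised genes of the set. HSPA1A had 14.7, 22.3 and 47.3 FPKM as the lowest, median and highest control library, 113, 112, 103, 175 and 168 FPKM in 10 mM libraries 2 to 6, and 291, 346, 301, 611 and 590 FPKM at 16 mM. Library 1 of the 10 mM group had 2584.5 FPKM. The 3 groups did not overlap apart from that library, and the second set was the higher one in each group. Against control, HSPA1A rose by 4.01 ± 1.01 (log2, SE) at 16 mM (adjusted p = 0.00506) and by 5.08 ± 1.04 at 10 mM (adjusted p = 0.00291). Without 10 mM library 1 the estimates were 4.02 ± 0.36 at 16 mM and 2.31 ± 0.34 at 10 mM (adjusted p = 5.03e-08 and 4.21e-05).

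HSPA1B had 12.3, 18.4 and 35.9 FPKM as the lowest, median and highest control library, 89.0, 89.6, 85.6, 123 and 124 FPKM in 10 mM libraries 2 to 6, and 178, 213, 194, 312 and 317 FPKM at 16 mM. It had 1909.7 FPKM in 10 mM library 1. Again only that library broke the order of the doses. HSPA1B rose by 3.48 ± 0.96 at 16 mM (adjusted p = 0.00940) and by 4.95 ± 1.01 at 10 mM (adjusted p = 0.00286). Without 10 mM library 1, the 10 mM estimate was 2.22 ± 0.29 (adjusted p = 1.56e-05).

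Reads of these near-identical genes may be split between them by the authors' counting, so their separate values are uncertain. Summed into 1 feature, HSPA1A and HSPA1B rose by 3.79 ± 0.99 at 16 mM (adjusted p = 0.00650) and by 5.02 ± 1.03 at 10 mM (adjusted p = 0.00291). The ratio of HSPA1A to HSPA1B in FPKM lay between 1.03 and 1.39 in control, between 1.20 and 1.42 at 10 mM and between 1.55 and 1.95 at 16 mM. The 16 mM range lay above the other ranges, and 10 mM library 1 was inside its group at 1.35.

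HSPA6, an HSP70 gene known to be transcribed almost only under stress, was close to silent in control. It had between 2 and 11 counts per control library, or 0.06 to 0.32 FPKM with a median of 0.16. It had 0.97, 1.10, 1.18, 1.13 and 1.29 FPKM in 10 mM libraries 2 to 6 and 6.09, 10.3, 8.23, 15.9 and 15.0 FPKM at 16 mM. The 3 groups did not overlap, except for 251 FPKM in 10 mM library 1, which was 222 times the mean of the other 10 mM libraries. HSPA6 (chr1:161524540-161527283, GRCh38.p13, as are the coordinates of the genes that follow) rose by 5.90 ± 1.80 at 16 mM (adjusted p = 0.0172). At 10 mM it rose by 8.70 ± 1.91 (adjusted p = 0.00480), and without that library by 2.57 ± 0.38 (adjusted p = 5.19e-05). With all libraries, limma on log2(FPKM + 1) gave a 10 mM change of 1.99 that did not pass (adjusted p = 0.141, or 0.186 without a filter on low values). HSPA6 has a near-identical neighbouring copy, HSPA7, and the division of reads between them was not tested.

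HSPA8, the constitutive HSP70 of the cytosol, had the highest FPKM of HSPA1A, HSPA1B, HSPA6 and HSPA8 in every library. It had 78.4, 190 and 412 FPKM as the lowest, median and highest control library. It had 590, 574, 565, 998 and 951 FPKM in 10 mM libraries 2 to 6, and 822, 835, 872, 1117 and 1094 FPKM at 16 mM. Both doses lay above control, but the 16 mM and 10 mM groups overlapped, since the second 10 mM set lay above the first 16 mM set. HSPA8 (chr11:123057489-123062366) rose by 2.09 ± 0.63 at 16 mM (adjusted p = 0.0157). It rose by 2.71 ± 0.63 at 10 mM (adjusted p = 0.00654), or by 1.72 ± 0.41 without 10 mM library 1 (adjusted p = 0.00267).

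The control level of HSPA8 was also the least even among the abundant genes of the set. The second control set averaged 352 FPKM and the first 89.4 FPKM, a ratio of 3.93, while the second set was 1.69 times the first at 10 mM and 1.31 times at 16 mM. The ratio of 16 mM to control in mean FPKM was 9.43 over first sets and 3.14 over second sets. HSP90AA1 and HSPA1A had control ratios of 2.47 and 2.33, and HSPA6 ran the other way at 0.50.

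Summed in TPM, HSPA1A, HSPA1B, HSPA6 and HSPA8 made up 212 to 927 TPM in control, 1452 to 2341 TPM in 10 mM libraries 2 to 6 and 2537 to 3811 TPM at 16 mM. The makeup of this pool at 16 mM lay outside the control range, while that of 10 mM libraries 2 to 6 lay inside it for HSPA8 and for the HSPA1A and HSPA1B pair. HSPA8 held 71.9% to 84.4% of it in control, 73.9% to 76.9% in 10 mM libraries 2 to 6 and 54.3% to 63.4% at 16 mM. HSPA1A and HSPA1B together held 15.5% to 27.8% in control, 23.0% to 25.9% in 10 mM libraries 2 to 6 and 36.0% to 45.0% at 16 mM. HSPA6 never held more than 0.772% outside 10 mM library 1. In that library HSPA8 held 36.8%, HSPA1A and HSPA1B 59.9%, and HSPA6 3.35% of 7678 TPM.

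**Figure D3:**
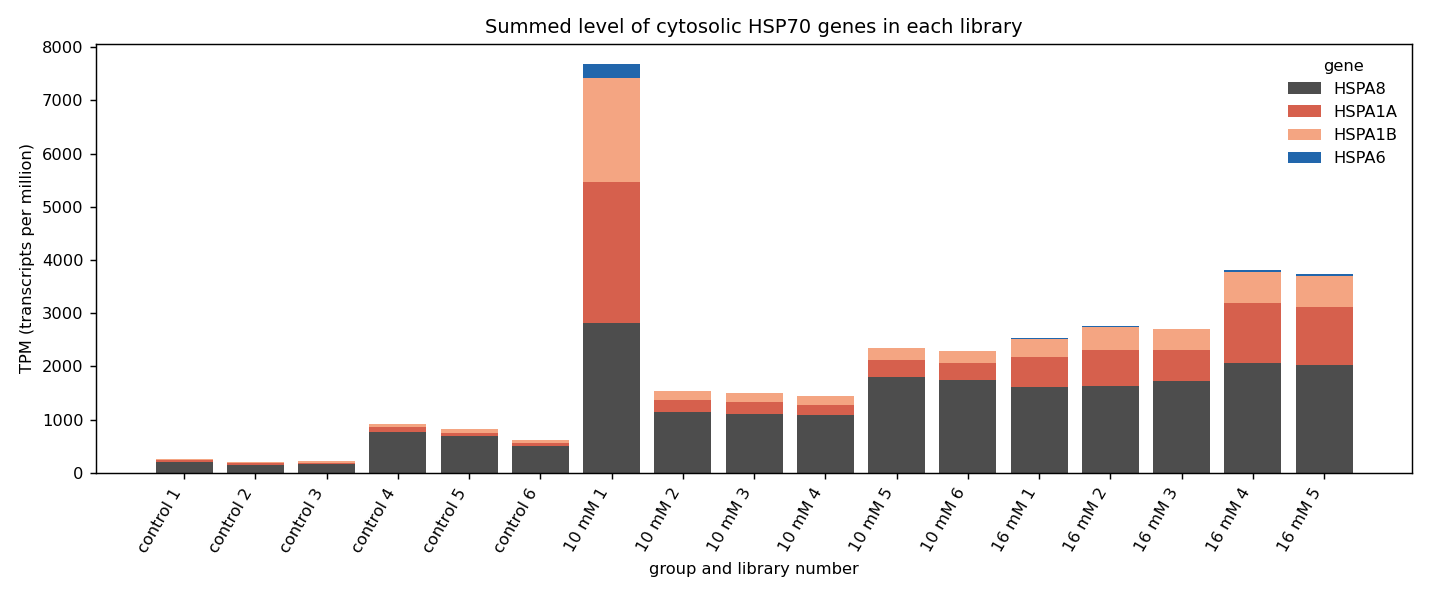
Summed TPM of HSPA8, HSPA1A, HSPA1B and HSPA6 in each of the 17 libraries, stacked by gene, with libraries ordered by dose and number. The summed bars reach 927 TPM in control and 3811 TPM at 16 mM, and 10 mM library 1 reaches 7678 TPM with the largest HSPA1A, HSPA1B and HSPA6 parts.

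The J-domain partners had smaller estimates at both doses than HSPA1A, HSPA1B and HSPA6 with all libraries in the fit. DNAJB1, the main stress-inducible J-domain protein of the cytosol, had 39.2, 52.5 and 68.1 FPKM as the lowest, median and highest control library. It had 104, 99.8, 95.3, 138 and 131 FPKM in 10 mM libraries 2 to 6 and 137, 149, 143, 143 and 148 FPKM at 16 mM. The 16 mM libraries were nearly level, with the highest 1.08 times the lowest, and they met the upper end of the 10 mM libraries. DNAJB1 (chr19:14514769-14530597) was 1.44 ± 0.67 higher at 16 mM without passing the test (adjusted p = 0.107), and 1.45 ± 0.16 higher without 10 mM library 1, which passed (adjusted p = 5.14e-07). At 10 mM it rose by 2.84 ± 0.68 (adjusted p = 0.00835), or by 1.10 ± 0.16 without that library, where DNAJB1 reached 914 FPKM (adjusted p = 3.73e-05).

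DNAJA1, a farnesylated J-domain protein of the cytosol, had 48.0, 62.4 and 102 FPKM as the lowest, median and highest control library. It had 171, 172, 171, 235 and 234 FPKM in 10 mM libraries 2 to 6 and 244, 264, 256, 367 and 353 FPKM at 16 mM. Apart from 10 mM library 1, at 553 FPKM, the dose groups did not overlap in FPKM, but the 16 mM and 10 mM groups overlapped in counts scaled by TMM. DNAJA1 (chr9:33025273-33039907) rose by 2.11 ± 0.46 at 16 mM (adjusted p = 0.00178). It rose by 2.27 ± 0.45 at 10 mM (adjusted p = 0.00221), or 2.83-fold without 10 mM library 1 (log2 SE 0.23, adjusted p = 5.85e-05).

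Among the nucleotide exchange factors, HSPH1 and BAG3 were both called at both doses. HSPH1, the inducible HSP110, had 36.9, 42.0 and 58.6 FPKM as the lowest, median and highest control library. It had 87.0, 84.8, 86.1, 145 and 145 FPKM in 10 mM libraries 2 to 6 and 170, 185, 183, 303 and 284 FPKM at 16 mM. In 10 mM library 1 HSPH1 had 225 FPKM, inside the 16 mM range, but that place turned with the scale: it lay below every 16 mM library in TPM (230 TPM, against 332 to 562 TPM) and at 1.38 times the highest 16 mM library in counts scaled by TMM. HSPH1 (chr13:31134973-31162388) rose 4.94-fold at 16 mM (adjusted p = 0.000293) and 3.58-fold at 10 mM (adjusted p = 0.00333), with SE of 0.40 and 0.38 on the log2 scale. Without that library the 10 mM change was 2.38-fold (log2 SE 0.22, adjusted p = 0.000239).

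BAG3, which links HSP70 to small heat shock proteins and selective autophagy, had 20.0, 23.2 and 27.9 FPKM as the lowest, median and highest control library. It had 34.7, 34.1, 33.5, 40.9 and 42.4 FPKM in 10 mM libraries 2 to 6 and 51.7, 62.9, 57.2, 91.1 and 92.5 FPKM at 16 mM. The groups did not overlap apart from 157 FPKM in 10 mM library 1. BAG3 (chr10:119607489-119682576) rose by 1.61 ± 0.52 at 16 mM (adjusted p = 0.0238), a call that was lost without 16 mM library 4 or 5 (adjusted p = 0.0592 for either). At 10 mM it rose by 1.75 ± 0.51 (adjusted p = 0.0245), or by 0.65 ± 0.18 without 10 mM library 1 (adjusted p = 0.00743). The 10 mM call was lost without control library 1, 2 or 3 (adjusted p = 0.0549, 0.0569 and 0.0563), and in a fit of the compared groups alone (adjusted p = 0.0642).

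HSP90AA1, the inducible cytosolic HSP90, was the most abundant of the 10 in control and at 16 mM. It had 150.5, 280.2 and 475 FPKM as the lowest, median and highest control library. It had 774, 765, 775, 1329 and 1287 FPKM in 10 mM libraries 2 to 6 and 1037, 1049.6, 1092, 1478 and 1419.6 FPKM at 16 mM. Library 1 of the 10 mM group had 1485 FPKM, just above the highest 16 mM library, but it lay below every 16 mM library in TPM (1519 TPM, against 2028 to 2740 TPM) and at 1.76 times the highest in counts scaled by TMM. The 16 mM and 10 mM ranges overlapped without it too. HSP90AA1 (chr14:102080742-102139749) rose by 2.03 ± 0.41 at 16 mM (adjusted p = 0.00104) and by 2.09 ± 0.40 at 10 mM (adjusted p = 0.00174). Without that library the 10 mM estimate was 1.72 ± 0.32 (adjusted p = 0.000341). Of the TPM of HSP90AA1 and its constitutive paralog HSP90AB1, HSP90AA1 held between 35.8% and 44.5% in control, between 55.7% and 61.6% at 10 mM and between 59.5% and 61.1% at 16 mM.

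HSPB1 had the smallest estimates of the 10 against control. It had 80.8, 112 and 151.5 FPKM as the lowest, median and highest control library, 137, 141, 140.01, 177 and 176 FPKM in 10 mM libraries 2 to 6, and 179.7, 205, 185, 249.9 and 253 FPKM at 16 mM. The first 10 mM set lay within the range of the controls. HSPB1 (chr7:76302673-76304292) was 0.90 ± 0.47 higher at 16 mM (adjusted p = 0.154) and passed without 10 mM library 1, at 0.91 ± 0.19 (adjusted p = 0.000466). That library had 504 FPKM of HSPB1.

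The 10 genes together took 0.0958% to 0.257% of TPM in control, 0.396% to 0.607% in 10 mM libraries 2 to 6, 1.16% in 10 mM library 1 and 0.609% to 0.869% at 16 mM. The order of levels within the set shifted with dose. By mean FPKM, HSPA1A ranked 7 of the 10 in control (26.8 ± 13.3; SD, n = 6), 5 in 10 mM libraries 2 to 6 (134 ± 34.5, n = 5) and 3 at 16 mM (428 ± 159, n = 5). HSP90AA1 and HSPA8 were first and second in these 3 sets of libraries. Their ranges across libraries overlapped in each, but within every single library of these sets HSP90AA1 lay above HSPA8. The ranges of HSPA1A, BAG3 and HSPA1B overlapped in control, where HSPA1A lay above HSPA1B within every library and BAG3 changed its place. HSPA6 was last in these 3 sets of libraries, where its range met that of no other gene of the set. In 10 mM library 1 its 251 FPKM lay above HSPH1 and BAG3.

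Between the doses, 0 of the 10 genes were called by edgeR, against 14.1% of 12564 genes (6.69% higher), and 0 had an unadjusted p under 0.05. DESeq2's Wald test gave an adjusted p for only 5 of the 10 genes and called 0 of these, against 23.0% of 11592 genes. It gives no result on the rest of the 10. All 10 genes overlapped between 16 mM and 10 mM, against 13.3% of genes tested whose 16 mM libraries all lay above. The calls in this comparison depended on 10 mM library 1 and on keeping close libraries separate. Without 10 mM library 1, HSPA1A, HSPA1B, HSPA6, HSPH1, DNAJA1 and BAG3 were called higher at 16 mM, 6 of 10, against 44.1% called and 23.2% called higher. With close libraries also summed, and so fewer sums, edgeR called 0 of all 13465 genes. Of the 10 genes, 5 then had an unadjusted p under 0.05.

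The estimates turned round for most of these genes. HSPA6 was 2.81 ± 1.46 below 10 mM on the log2 scale (estimate -2.81; adjusted p = 0.195) with 10 mM library 1 in the fit, and rose by 3.32 ± 0.28 without it (adjusted p = 1.07e-06). HSPA1A gave -1.07 ± 0.94 with the library (adjusted p = 0.447) and 1.71 ± 0.35 without it (adjusted p = 0.00104). HSPH1 was positive both ways, at 0.46 ± 0.39 (adjusted p = 0.428) and 1.06 ± 0.23 (adjusted p = 0.00179). HSPA8, DNAJB1, HSP90AA1 and HSPB1 were not called without the library, at 0.38 ± 0.42, 0.36 ± 0.16, 0.32 ± 0.33 and 0.48 ± 0.20 (adjusted p = 0.479, 0.0868, 0.442 and 0.0561). In FPKM, 7 of the 10 genes then had every 16 mM library above every 10 mM library, against 17.8% of genes tested; HSPA8, DNAJB1 and HSP90AA1 overlapped. The count was 8 in TPM and 5 in counts scaled by TMM.

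**Figure D4:**
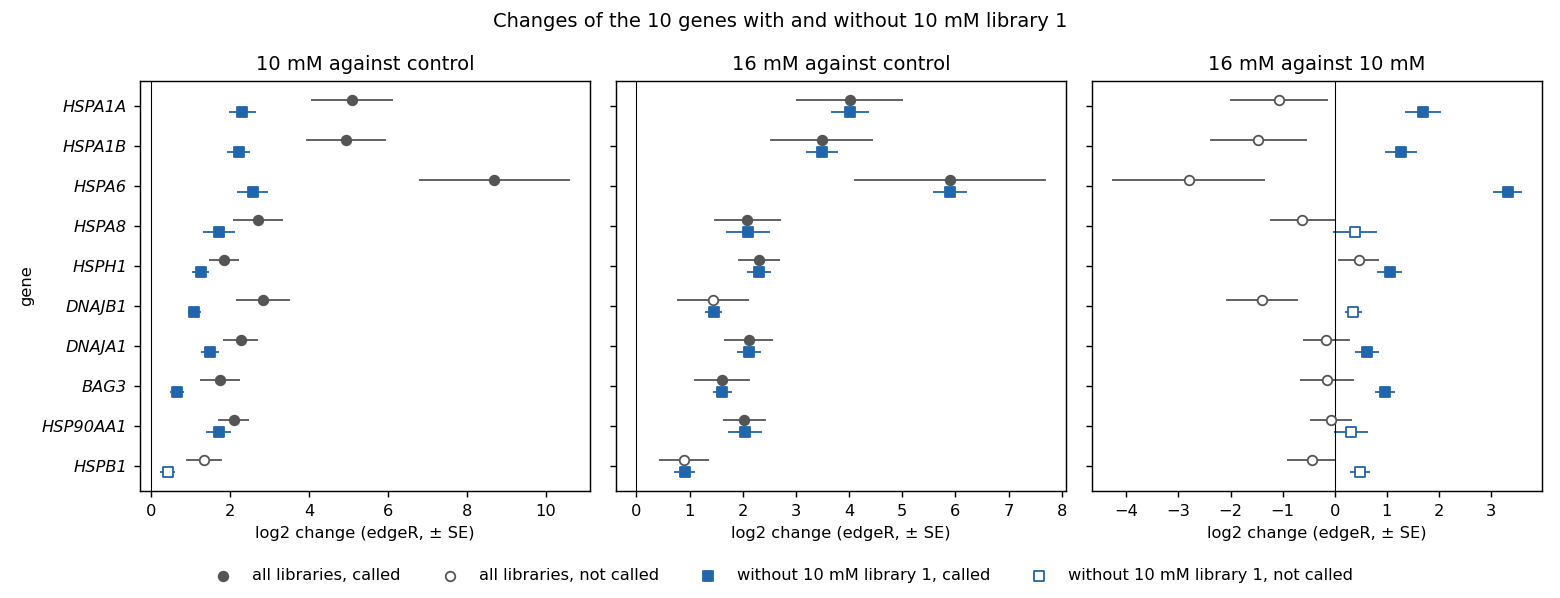
Log2 changes (edgeR, with SE as bars) of the 10 genes for 10 mM against control, 16 mM against control and 16 mM against 10 mM, with all 17 libraries (circles) and without 10 mM library 1 (squares). Filled symbols passed an adjusted p under 0.05; leaving the library out narrows the bars and moves the estimates that use the 10 mM group, while those of 16 mM against control hardly move.

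The high values of 10 mM library 1 were uneven over the set. Relative to the mean of the other 10 mM libraries in FPKM, HSPA6 was 222-fold, HSPA1A 19.3-fold, HSPA1B 18.7-fold and DNAJB1 8.05-fold higher there. The ratio was 4.24 for BAG3, 3.75 for HSPA8, 3.27 for HSPB1, 2.82 for DNAJA1, 2.05 for HSPH1 and 1.51 for HSP90AA1. The ratios moved with the scale. In counts scaled by TMM they were 418 for HSPA6, 36.1 for HSPA1A, 4.04 for HSPH1 and 2.81 for HSP90AA1, and in TPM they were 120 for HSPA6, 10.5 for HSPA1A, 1.12 for HSPH1 and 0.82 for HSP90AA1, which was thus lower there than in the other 10 mM libraries. Library 1 lay above all 16 mM libraries for 9 of the 10 genes in FPKM, 10 in counts scaled by TMM and 6 in TPM (HSPA1A, HSPA1B, HSPA6, HSPA8, DNAJB1 and HSPB1).

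In the authors' deposited table, the 10 genes had q-values up to 8.45e-05 at 16 mM and up to 0.0499 at 10 mM against control, all of them higher. For 16 mM against 10 mM the authors' deposited table gave 0 of 10 a q-value under 0.05 and 1 of 10 a positive log2 change.

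The counts of the companion lists at 16 mM are to be read against the 35.3% of genes called with all libraries (17.3% higher) and the 65.9% called without 10 mM library 1 (33.7% higher). These lists, too, were chosen with earlier results of these data known. The other HSP70 and HSP110 genes were split. Of 10 tested, 5 rose and 0 fell at 16 mM, with a median log2 change of 0.36. Without 10 mM library 1, 6 rose and 2 fell. HSPA1L, an HSP70 gene next to HSPA1A that shares much of its sequence, had 1.84 ± 0.33 FPKM at 16 mM and 0.358 ± 0.107 FPKM in control (SD, n = 5 and 6) and rose by 2.36 on the log2 scale. HSPA4, a constitutive HSP110, had 146 ± 21.6 FPKM at 16 mM and 83.6 ± 5.88 FPKM in control and rose by 0.83. The divergent HSPA12A rose by 0.95 and HSPA4L by 0.46. HSPA5, the HSP70 of the endoplasmic reticulum, stood at -0.38, and fell only in the fit without 10 mM library 1 (-0.38, adjusted p = 0.000559). HSPA9, the mitochondrial HSP70, was not called, at 0.25.

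Of 19 other J-domain co-chaperones tested, 3 rose and 4 fell at 16 mM (12 and 5 without 10 mM library 1), with a median of 0.28. The share called was 36.8%, close to that of all genes, or 89.5% without that library. DNAJA2, the cytosolic paralog of DNAJA1, rose by 0.79, to 50.4 ± 2.33 FPKM at 16 mM against 29.4 ± 1.20 FPKM in control. DNAJB12 and DNAJC10, which serve the endoplasmic reticulum, fell by 0.76 and 0.37, and DNAJC21, a factor of ribosome assembly, fell by 0.35. Of 11 other exchange and release factors, 3 rose and 1 fell, a share of 36.4%, again close to that of all genes (8 and 3 without that library). BAG4, BAG5 and BAG6 rose by 0.39, 0.24 and 0.31, and SIL1, the exchange factor of HSPA5, fell by 0.82.

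Of 14 other HSP90 genes and HSP90 co-chaperones tested, 6 rose and 2 fell at 16 mM, with a median of 0.48, and 10 rose and 2 fell without 10 mM library 1. CHORDC1, FKBP4 and STIP1, which hands clients of HSP70 to HSP90, rose by 1.53, 1.59 and 1.44, and FKBP5, an immunophilin that dampens steroid receptor signalling, fell by 0.69. Of 9 genes listed with other small heat shock proteins, 1 was tested, HSPB11, and it was not called, at 0.09. CRYAB, HSPB2, HSPB6, HSPB8 and HSPB9 were in the table but were not tested. Whether HSPB11 can stand for that family was not tested.

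Among 19 tested genes known to be induced by heat shock factor 1, 10 rose and 0 fell at 16 mM, with a median of 1.22, and 17 rose and 0 fell without 10 mM library 1. At 10 mM, 12 rose and 0 fell, or 13 and 1 without that library, against 9.41% and 22.4% of all genes called higher. Some of these genes, CHORDC1 and FKBP4 among them, also stand in the HSP90 list. JMJD6, a hydroxylase, had 64.3 ± 2.41 FPKM at 16 mM and 23.5 ± 3.44 FPKM in control and rose by 1.49. IER5, an immediate early gene, had 24.4 ± 2.15 FPKM at 16 mM and 8.60 ± 0.60 FPKM in control and rose by 1.52.

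The factor itself was not called at either dose. HSF1 had 47.8 ± 2.90 FPKM at 16 mM and 43.7 ± 5.18 FPKM in control, a log2 change of 0.11 ± 0.19 (adjusted p = 0.696), and at 10 mM its change was 0.29 ± 0.18 (adjusted p = 0.268). Of 8 heat shock factors and regulators tested, 1 rose and 1 fell at 16 mM (3 and 3 without 10 mM library 1). SIRT1, a deacetylase that acts on HSF1, rose by 0.92, and HSF4 fell by 1.14. HSBP1, which binds HSF1, rose at 10 mM by 0.85 (adjusted p = 0.0425).

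**Figure D5:**
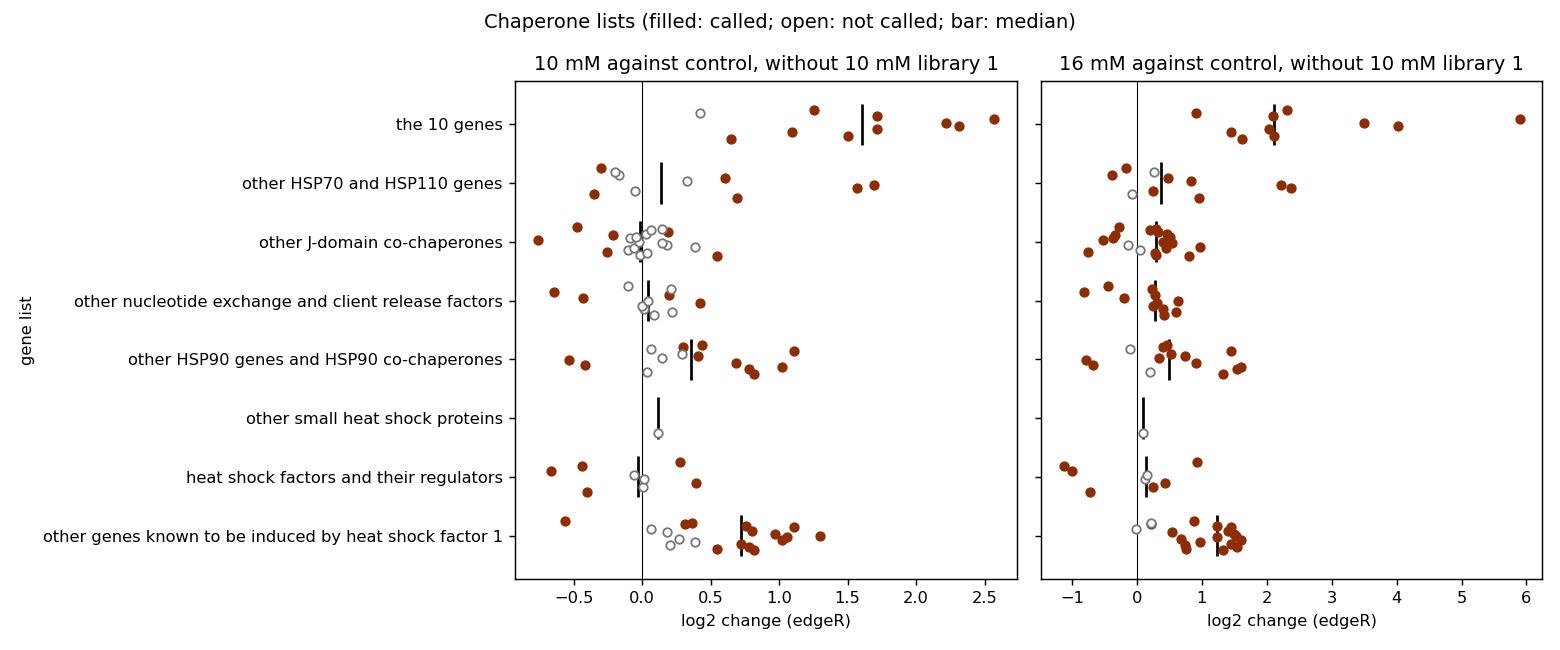
Log2 changes (edgeR, without 10 mM library 1) of the tested genes of each list, for 10 mM against control and 16 mM against control. Filled points passed an adjusted p under 0.05 and bars are list medians; the 10 genes have a median of 1.61 at 10 mM and 2.11 at 16 mM, and the other lists lie closer to 0.

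Over the 17 libraries, the 45 pairs among the 10 genes had Spearman correlations of FPKM from 0.814 to 0.995, and from 0.777 to 0.994 over 16 libraries without 10 mM library 1. The points share the 3 doses and the library sets, so these are descriptions. Of 9728 genes outside the lists, the patterns closest to the summed HSPA1A and HSPA1B were those of EIF4A3, OGFOD1, AAMP, C11orf68 and PNP, with Spearman correlations from 0.993 to 0.998. Without 10 mM library 1, POLR3A took the place of PNP. EIF4A3 had a mean of 76.0 FPKM in control, 123 FPKM in 10 mM libraries 2 to 6 and 158 FPKM at 16 mM, and 232 FPKM in 10 mM library 1. Its means spanned a narrower range than those of HSPA1A and HSPA1B.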

How the data were processed

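Per the labels' protocols, poly-A RNA was captured with oligo-dT beads, broken up, copied with random primers and circularised as single strands. No source used here says whether strand was kept. The submitters' processing notes name DESeq2 1.4.5, RSEM 1.3.1, Bowtie2 2.3.4.3 and HISAT with GRCh38.p13, without their roles. The deposited read count columns, per the file headers, hold expected counts, since 13.1% are not whole; they were rounded. The deposited FPKM and TPM values, per the file headers, gave levels and shares. The authors' deposited log2 fold changes and q-values were used only where named. Groups and library numbers came from the titles.

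One edgeR 4.0.16 quasi-likelihood fit (R 4.3.3, TMM, filterByExpr) over 17 libraries, with 14 residual degrees of freedom, gave all comparisons. Tests were two-sided, with Benjamini-Hochberg adjustment over all 12564 genes. SE is the log2 change divided by the root of F. The code was tested on simulated data. Alternatives were a replicate block, other normalization and filters, DESeq2 1.42.0, limma 3.58.1 on log2(FPKM + 1) or log2(FPKM + 0.1), fits of the compared groups only, voom with library weights, HSPA1A and HSPA1B summed, and each library left out. Sums and splits by close libraries (1 minus Pearson r under 0.008) were added after seeing the data.

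The 10 genes and the lists were chosen with earlier results of these data known. Named genes were the 10, up to 4 called members per list with the smallest adjusted p at 16 mM and at least 1 FPKM, and the 5 most alike genes. HSP90AB1, HSPA5, HSPA9, HSF1, VIM, DCN and LUM were named outside that rule, after their values were seen, as were the markers at or near 0. Promoter sequences are RefSeq's, on GRCh38.p14. The table's coordinates of HSPA1A and HSPA1B mix a scaffold with a chromosome and were not used. Per-sample columns left unmatched numbered 0.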

Additional observations from a re-analysis of the deposited data

Results flagged for a closer look

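In FPKM, 8 of the 10 genes in the 10 mM group had library 1 farther from the other 5 libraries than Dixon's test allows at the 95% level. Chance alone flags about 1 in 20 such groups, and the 8 flags come from 1 library. The values in that library were 2584.5 FPKM for HSPA1A, 1909.7 FPKM for HSPA1B, 251 FPKM for HSPA6, 2759 FPKM for HSPA8, 914 FPKM for DNAJB1, 553 FPKM for DNAJA1, 157 FPKM for BAG3 and 504 FPKM for HSPB1. HSPH1 and HSP90AA1 were not flagged in FPKM, but their place in library 1 moved with the scale. Relative to the mean of the other 10 mM libraries they stood at 4.04 and 2.81 in counts scaled by TMM. In TPM they stood at 1.12 and 0.82. The flags are thus those of FPKM. In control and at 16 mM, 0 of the 10 genes were flagged.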

How the results depend on the processing

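Counts of the 10 genes called for 16 mM against control were 8 as reported and 7 to 10 with a library left out. DNAJB1 and HSPB1, not called as reported, passed in a fit of the compared groups alone (adjusted p = 5.24e-06 and 0.00188, with 64.3% of all genes called). They also passed under limma with either pseudocount or no filter (adjusted p from 0.0142 to 0.0271, with 25.3% to 32.1% of all genes called). Under voom with library weights both passed too (73.2% of all genes called). DESeq2's Wald test called 5 (of 5 with an adjusted p) at 16 mM and 5 (of 5) at 10 mM against control (42.9% and 27.1% of all genes). With close libraries summed, 0 genes of the 10 were called in either comparison (0 of all 13525 genes; 2 and 8 of the 10 at an unadjusted p under 0.05), with HSPA1A at 4.12 for 16 mM. With 10 mM library 1 also left out, and so fewer sums, 10 were called at 16 mM and 2 at 10 mM (25.8% and 1.83% of 13465 genes). For 10 mM against control the count was 9 as reported and 8 to 10 with a library left out. HSPB1, not called there as reported, passed without 10 mM library 2, 3, 4 or 6 (adjusted p from 0.0350 to 0.0496). It missed with any other library left out (adjusted p up to 0.108). With DESeq2 size factors in edgeR it passed too (adjusted p = 0.0493). In these fits that called HSPB1, 16.3% to 19.5% of all genes were called. The replicate number as a block gave 8 and 6 calls for 16 mM and 10 mM against control, and 0 for 16 mM against 10 mM (33.1%, 14.5% and 10.4% of all genes). HSPA6, DNAJB1 and BAG3 lost their 10 mM calls (adjusted p = 0.0775, 0.0631 and 0.110), and no other call changed. For 16 mM against 10 mM the block turned 6 estimates positive, without a call. These were HSPA1A (0.78), HSPA1B (0.37), HSPA6 (2.16), DNAJA1 (0.12), BAG3 (0.37) and HSP90AA1 (0.09). HSPA8 (-0.11), DNAJB1 (-0.36) and HSPB1 (-0.03) stayed negative. Same-numbered libraries correlated at -0.419 to 0.427 in their deviations from the group mean (12 of 16 pairs over 0.1). Whether the numbers pair the libraries was not settled by these values. The labels name no pairing, and the reported fit uses the group alone. Without filter or with other size factors the counts stayed within 1.5 times.

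For 16 mM against 10 mM the count of 0 became 1 under limma with either pseudocount or no filter (7.82% to 11.2% of all genes called), 8 under voom with library weights (59.9%), 10 over first sets (54.4%), 8 over second sets (64.4%) and 0 to 6 with a library left out (44.1% where it was 6). Signs turned to positive under voom for HSPA1A (1.52), HSPA1B (1.15), HSPA6 (2.95), DNAJB1 (0.48), DNAJA1 (0.56), BAG3 (0.77) and HSPB1 (0.43). Over first sets the values were 1.51 for HSPA1A, 1.14 for HSPA1B, 2.91 for HSPA6, 0.54 for HSPA8, 0.51 for DNAJB1, 0.56 for DNAJA1, 0.74 for BAG3, 0.45 for HSP90AA1 and 0.42 for HSPB1. Over second sets they were 1.85 for HSPA1A, 1.39 for HSPA1B, 3.71 for HSPA6, 0.16 for DNAJB1, 0.66 for DNAJA1, 1.18 for BAG3 and 0.54 for HSPB1. With a library left out, estimates ran from -1.32 to 1.71 for HSPA1A, -1.71 to 1.28 for HSPA1B, -3.10 to 3.32 for HSPA6, -0.30 to 0.62 for DNAJA1 and -0.31 to 0.97 for BAG3. HSPA8, DNAJB1, HSP90AA1 and HSPB1 also changed sign there (-0.79 to 0.38, -1.60 to 0.36, -0.18 to 0.32 and -0.59 to 0.48), with no call either way. The first and second sets leave out 10 mM library 1. With close libraries summed, the count stayed at 0 with and without that library (0 of 13525 and 0 of 13465 genes called). Splits by set rest on libraries that lie close together, so their p-values are not those of separate cultures.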
